A study of Mus musculus with 12 samples.

Results

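The subunits of the glutamate and GABA receptors are described here in RNA-seq data from mouse peri-infarct cortex. The members were taken by gene symbol alone: the AMPA (Gria1 to Gria4), kainate (Grik1 to Grik5) and NMDA (Grin1, Grin2a to Grin2d, Grin3a and Grin3b) subunits, the metabotropic glutamate receptors (the Grm genes), the alpha, beta, gamma and delta subunits of the GABA A receptor, and the GABA B subunits Gabbr1 and Gabbr2. The rule found 39 genes of the 25238 in the count table. No measured value entered it.

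Cortical micro-punches from 12 mice gave 1 library each, with 4 libraries labelled control, 4 labelled Veh and 4 labelled ISP. Veh and ISP mice were male C57BL/6J mice with a transient occlusion of the middle cerebral artery, and their tissue was taken on day 14 after stroke. ISP mice received intracellular sigma peptide, a membrane-permeable mimic of a regulatory domain of the proteoglycan receptor PTPσ, at 1 μg/g/day from day 1. Veh mice received 5% DMSO in saline by the labels. Elsewhere the study speaks of a scrambled peptide for its comparison mice. For the libraries labelled control the tissue is also given as peri-infarct cortex. The sources used here state neither surgery nor treatment nor a day for these mice, and comparisons with them stand under that label alone. All 12 libraries come from whole tissue with neurons, glia and vessels in unknown proportions. Fewer cells of a type and less RNA per cell cannot be told apart in such samples.

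Glutamate opens the AMPA, kainate and NMDA receptors, which are channels built of several subunits, and these carry most fast excitation in cortex. GABA opens the GABA A receptors, chloride channels also built of several subunits, which carry most fast inhibition. The metabotropic glutamate receptors and the GABA B receptor act more slowly, through G proteins, on both sides of the synapse. The subunit mix sets where a channel sits, how fast it closes and which ions pass, and the balance of excitation and inhibition near an infarct has long been studied in recovery from stroke.

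Library depth was 21322702 to 29845629 counts for control, 17442711 to 24706638 for Veh and 19325979 to 28685864 for ISP. All 15 pan-neuronal and all 10 excitatory neuron markers were detected in each group, and the 15 pan-neuronal markers summed to 14710 to 15670 CPM (counts scaled to the library size) in control, 13510 to 15640 in Veh and 12130 to 14820 in ISP. Of the marker lists, that of reactive astrocytes spread the most, from 103.9 to 121.2 CPM in control, 213.7 to 829.9 in Veh and 403.2 to 3017 in ISP, with Lcn2 at 0 in all control libraries. The libraries ISP 14 and ISP 18 stood apart from ISP 12 and ISP 16 with high markers of reactive astrocytes and of microglia and macrophages. Their centred log2 means of reactive astrocyte markers were 1.42 and 1.64, against -0.10 in ISP 12 and -0.13 in ISP 16. Those of microglia and macrophage markers were 1.61 and 1.49, against 0.02 and -0.185. Oligodendrocyte markers did not split in this way, with means of 0.43 in ISP 14 and 1.13 in ISP 18, against 0.56 in ISP 12 and -0.08 in ISP 16. Calls of receptor subunits and of listed genes in ISP are given with and without them.

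Of the 39 members, 37 passed the filter on low counts. The exceptions were Gabra6, a subunit of cerebellar granule cells, listed at 0 counts in all 12 libraries, and Grm6, the receptor of retinal ON bipolar cells, with 1 count in Veh 6, 1 in Veh 8 and 0 elsewhere. Levels were compared between genes as CPM per kb of merged exons (CPM/kb), and the order below is that of the control libraries. Where an annotated untranslated region is long and little used, this scale understates a gene. Among AMPA subunits Gria1 led with 54.9 ± 2.48 CPM/kb (SD, n = 4), ahead of Gria2 at 28.2 ± 2.78 and Gria3 at 25.0 ± 2.17, which did not differ beyond their spread, and Gria4 at 17.5 ± 2.08. The merged exons of Gria2 span 15548 bases against 6043 for Gria1, so this order holds for this scale only. In CPM, Gria2 stood at 438 ± 43.3 and Gria1 at 332 ± 15.0. Grik5, a high-affinity kainate subunit that needs a partner to form channels, led its family at 54.6 ± 4.41 CPM/kb. Grik3 followed at 15.5 ± 4.31 CPM/kb, and Grik4, Grik2 and Grik1 lay between 1.58 and 3.64.

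Grin1, the obligatory NMDA subunit, was at 75.3 ± 1.51 CPM/kb. Grin2b, the subunit that dominates early in life, followed at 18.2 ± 2.67, above Grin2a at 12.0 ± 1.18 and Grin2c at 10.7 ± 0.728. Grin2d, found mainly in interneurons and deep structures, was at 3.59 ± 0.631, and Grin3a and Grin3b stood at 2.06 and 1.11 CPM/kb. Counts of Grin1 and Grin3b are uncertain, because 1307 and 1059 of their exon bases are shared with Grin1os and Tmem259 on the opposite strand. Among metabotropic receptors, Grm3 and Grm2, of the group that dampens release and adenylyl cyclase, were level at 17 ± 2.19 and 16.7 ± 2.15 CPM/kb. Grm5, the cortical group I receptor that acts through phospholipase C, stood at 10.4 ± 0.570 CPM/kb. The presynaptic group III receptors Grm7, Grm4 and Grm8 were at 6.87, 6.80 and 2.17 CPM/kb.

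GABA receptor subunits included the highest level of any member. Gabbr1, which binds GABA in the GABA B receptor, was at 102 ± 4.23 CPM/kb and its partner Gabbr2, which couples to the G protein, at 64.3 ± 2.998. Gabrb2, a beta subunit of synaptic GABA A receptors, was at 50.3 ± 5.66 CPM/kb. Gabra3 was at 48.4 ± 1.76 CPM/kb, followed by Gabra5 at 23.4, Gabra4 at 15.8 and Gabra2 at 6.45. Gabrb1 was at 7.75 and Gabrd, the subunit of extrasynaptic receptors with tonic currents, at 36.5 ± 5.15 CPM/kb. Gabrg3 and Gabrg1 were at 3.44 and 1.63 CPM/kb. Summed per library, GABA A subunits exceeded AMPA subunits 2.61-fold in control, 2.55-fold in Veh and 2.42-fold in ISP on this scale.

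**Figure D1:**
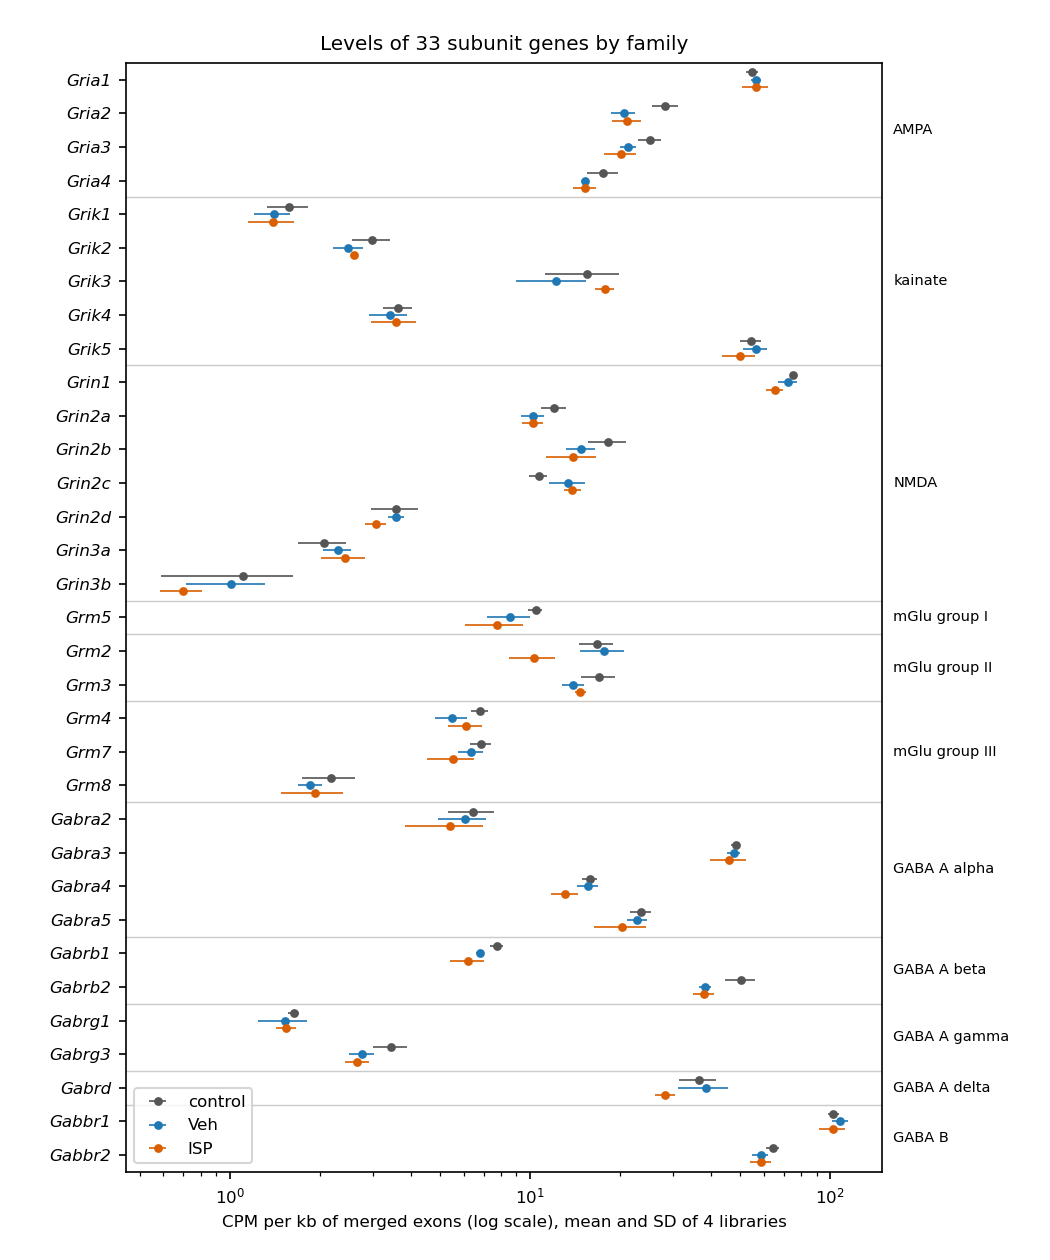
Levels of 33 subunit genes as mean and SD of 4 libraries in CPM per kb of merged exons, on a log axis, with control in grey, Veh in blue and ISP in orange. Gabbr1, Grin1 and Gabbr2 lie furthest right, and Grin3b lies furthest left at 1.11 in control.

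Several GABA A genes are neighbours in the genome. In GENCODE release M21 on mm10, Gabrg1, Gabra2, Gabra4 and Gabrb1 lie within chr5:70751047-72149037. Gabra4 and Gabrb1 share 46 exon bases on opposite strands, so a few reads could go to either.

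The promoters of 4 members are shown because the comparisons below turn on these genes: Gria2 and Gabrb2 were lower than control in Veh and in ISP, Grm2 was lower and Grin2c higher in ISP than in control. Each sequence is the 250 bases before a RefSeq transcription start, 5′ to 3′ on the strand of the gene, from build GRCm38.p6. They are at chr3:80802836-80803085 (Gria2, minus strand), chr11:42420190-42420439 (Gabrb2, plus strand, the most upstream of 3 entries), chr9:106656110-106656359 (Grm2, minus strand) and chr11:115267244-115267493 (Grin2c, minus strand). Capitals mark matches, on either strand, to the GC box GGGCGG, the TATA box TATAAA and the RE1 element, searched as the parts AGCACC and GGACAGC spaced 2 bases or 7 to 9 bases apart.
Gria2: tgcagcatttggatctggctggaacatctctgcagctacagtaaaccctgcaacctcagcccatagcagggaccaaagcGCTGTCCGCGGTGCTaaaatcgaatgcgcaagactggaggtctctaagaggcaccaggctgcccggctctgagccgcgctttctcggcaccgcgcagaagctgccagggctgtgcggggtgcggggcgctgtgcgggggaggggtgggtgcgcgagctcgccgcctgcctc
Gabrb2: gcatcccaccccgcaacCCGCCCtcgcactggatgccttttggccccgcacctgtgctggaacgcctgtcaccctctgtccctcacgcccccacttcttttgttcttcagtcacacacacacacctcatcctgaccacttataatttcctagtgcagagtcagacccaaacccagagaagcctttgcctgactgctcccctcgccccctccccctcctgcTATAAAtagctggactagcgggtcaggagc
Grm2: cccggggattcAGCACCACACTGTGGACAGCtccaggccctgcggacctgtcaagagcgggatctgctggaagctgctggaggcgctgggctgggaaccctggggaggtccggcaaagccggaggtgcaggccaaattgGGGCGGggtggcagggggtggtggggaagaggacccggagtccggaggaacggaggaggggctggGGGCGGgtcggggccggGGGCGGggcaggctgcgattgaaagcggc
Grin2c: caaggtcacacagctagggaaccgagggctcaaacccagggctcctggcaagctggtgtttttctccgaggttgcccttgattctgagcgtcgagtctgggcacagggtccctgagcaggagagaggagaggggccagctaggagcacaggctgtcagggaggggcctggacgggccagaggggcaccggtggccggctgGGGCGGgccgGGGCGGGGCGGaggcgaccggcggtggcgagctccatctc

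RE1 is the site of REST, a repressor that keeps neuronal genes silent in other cells. The promoter of Gria2 held an RE1 match with the parts 2 bases apart, on the minus strand and 156 bases from the start, as did 0.0274% of 32841 promoters of the same length (9 promoters). No other member promoter of the 33 searched held one. The promoter of Grm2 held the spaced form, 219 bases from the start, which 0.0152% of all promoters did (5 promoters). The RE1 search was added after these promoters had been read, so both matches are descriptions. GC boxes were in 15 of the 33 member promoters, against 32.7% of all promoters, with 3 each in Grm2 and Grin2c, where a pair of those in Grin2c overlap by 1 base. A TATA box lay 24 bases before the RefSeq start of Gabrb2 used here and was in 4 member promoters and in 12.4% of all. In GENCODE M21 Gabrb2 begins further upstream, at chr11:42419757, so its printed window lies inside that gene model. The cyclic AMP response element TGACGTCA was in 0 of the 33 and in 1.55% of all promoters. The 33 promoters belong to 26 members.

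Veh was compared with control to describe the vehicle-treated peri-infarct cortex against the only libraries of the series without a stated treatment. Gria2 and Gabrb2 were lower in Veh, with changes of -26.7% and -23.2%, and no member was called higher by edgeR (by DESeq2 1 was, Grin2c). In all, 3 of 37 tested members were lower, where edgeR called 1.2% of 15126 genes lower and 1.03% higher (quasi-likelihood test, Benjamini-Hochberg adjusted p under 0.1). Of the members, 29 of 37 had a negative log2 fold change, with a median of -0.15 against 0.02 over all genes tested. In 8 of 37 members every Veh library lay below every control library, against 5.45% of all genes. By DESeq2, 6 of 37 members were lower, against 3.63% of all genes. With 1 library left out, edgeR called 0 members lower without control 21, control 36 or Veh 2, 1 without Veh 8 and 2 to 4 otherwise. The share of all genes called lower was 0% to 0.0196% in the first 3 of these fits, 0.312% without Veh 8 and 0.416% to 1.92% in the others.

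Gria2, the AMPA subunit that makes the channel impermeable to calcium, was at 419, 500, 434 and 401 CPM in control and at 279, 329, 320 and 347 CPM in Veh. ISP libraries gave 327, 351, 357 and 277 CPM. Every stroke library lay below every control library, and Veh and ISP overlapped. The log2 fold change was -0.45 (SE 0.0877, edgeR adjusted p = 0.0631) for Veh and -0.42 (SE 0.0949, adjusted p = 0.0342) for ISP, both against the same control libraries. Without ISP 14 and ISP 18 the value of Gria2 in ISP was -0.36 (adjusted p = 0.207). Gria2 has the longest AMPA transcript model and a GC content of 36.8%, and an offset for GC content and length moved these values to -0.17 (adjusted p = 0.19) and -0.24 (adjusted p = 0.106). Over its alternatives the adjusted p ranged from 0.000405 to 0.19 for Veh and from 0.00145 to 0.431 for ISP. The call in Veh was lost without control 21, control 36 or Veh 2, with log2 fold changes of -0.50 to -0.39 over all single omissions.

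Within each library, the ratio of Gria2 to the sum of Gria1, Gria3 and Gria4, taken per kb, had a log2 mean of -1.79 ± 0.0813 in control, -2.18 ± 0.158 in Veh and -2.12 ± 0.0621 in ISP (SD, n = 4). Control libraries lay between -1.86 and -1.69, above all 8 stroke libraries, and the shift was -0.39 in Veh and -0.33 in ISP. A ratio within a library does not depend on its scaling, but GC content and length, which differ between these genes, act on it. Gria1 itself was at 332 ± 15.0 CPM in control, 341 ± 12.9 in Veh and 341 ± 34.7 in ISP. Gria3 was at 247 ± 21.4 CPM in control, 209 ± 12.5 in Veh and 198 ± 24.0 in ISP, with a log2 fold change of -0.32 in ISP (SE 0.0967, edgeR adjusted p = 0.082, a call that remained only without ISP 16 among the single omissions, at -0.37 to -0.24 over all 8) and -0.23 in Veh (adjusted p = 0.173). For Gria4 the log2 fold changes were -0.19 in Veh (adjusted p = 0.277) and -0.20 in ISP (adjusted p = 0.242).

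Gabrb2 was at 314, 369, 315 and 282 CPM in control, 229, 243, 246 and 257 in Veh and 239, 244, 264 and 218 in ISP. No stroke library reached the lowest control library. The log2 fold change was -0.38 in Veh (SE 0.0816, edgeR adjusted p = 0.0746) and -0.41 in ISP (SE 0.09, adjusted p = 0.0309). The call of Gabrb2 in Veh was lost without control 21, control 36, Veh 2 or Veh 8, where its log2 fold change was -0.44 to -0.31 over all omissions. In ISP the call of Gabrb2 remained with each of the 8 libraries left out in turn, and without ISP 14 and ISP 18 together it was lost, at -0.35 (adjusted p = 0.266).

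In the kainate, NMDA, metabotropic and GABA B families, edgeR called 0 members in Veh at an adjusted p under 0.1. DESeq2 called 2 of them, Grin2c higher (adjusted p = 0.0635) and Grm4 lower (adjusted p = 0.0957), where it called 2.83% of all genes higher and 3.63% lower. The NMDA subunits Grin2b and Grin2a gave log2 fold changes of -0.29 (edgeR adjusted p = 0.194) and -0.23 (adjusted p = 0.215), and the log2 ratio of Grin2b to Grin2a was 0.59 ± 0.083 in control and 0.53 ± 0.145 in Veh. Grm3, Grm4 and Grm5 lay between -0.30 and -0.27 with adjusted p of 0.168 to 0.224. Some groups did not overlap although the test was missed: all Veh libraries lay below all control libraries for Grm4 (-0.30, SE 0.1, adjusted p = 0.168), Gabrg3 (-0.31, SE 0.108, adjusted p = 0.176) and Gabrb1 (-0.17, SE 0.0678, adjusted p = 0.222), and above them for Grin2c. Gabra3, Gabra4 and Gabra5 gave log2 fold changes of -0.03 to -0.01. Gabbr1 and Gabbr2 gave 0.09 and -0.12, with adjusted p of 0.567 and 0.402.

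**Figure D2:**
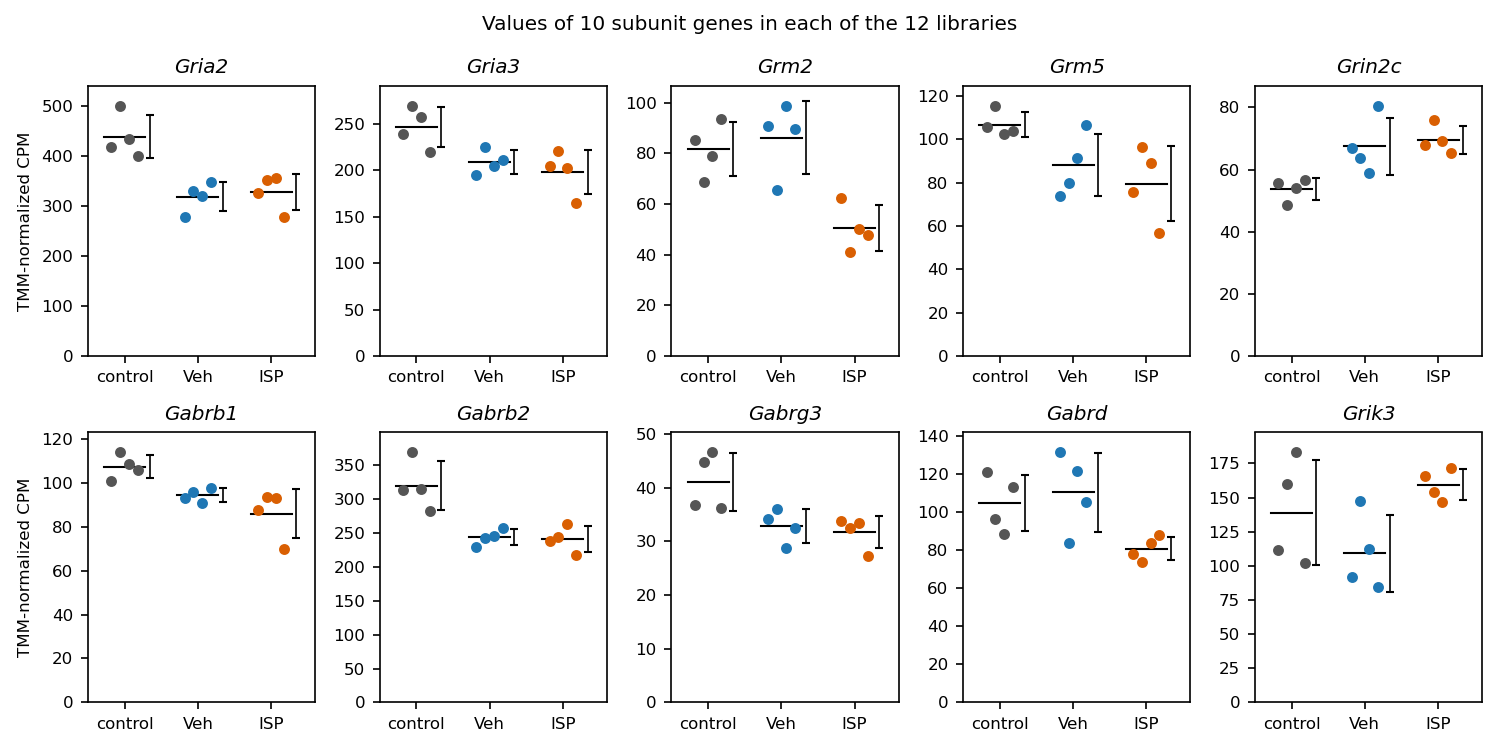
TMM-normalized CPM of 10 subunit genes in each library, with the group mean as a line and the SD as a bar, on axes that start at 0. Control points of Gria2 and Gabrb2 lie above all Veh and ISP points, and the ISP points of Grm2 lie below all others.

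ISP was compared with control on the same terms and with the same control libraries as Veh, so the values are set side by side and the comparisons are not independent. Of 37 tested members, 9 were lower in ISP and 1 was higher, where edgeR called 3.42% of 15232 genes lower and 6.74% higher. The lower members were Grm2, Gabrb2, Gria2, Gabrd, Gabrg3, Gabrb1, Gria3, Grm5 and Gabra4, with changes of -38.4% to -17.1%. In 33 of 37 members the log2 fold change was negative, with a median of -0.22 against -0.01 over all genes. In 11 of 37 every ISP library lay below every control library, against 4.76% of all genes, and DESeq2 placed 14 of 37 lower, against 5.09%. With ISP 14 and ISP 18 left out, which leaves 2 ISP libraries, 0 members were called lower and 0 higher by edgeR, while the log2 fold changes of these 10 members kept their direction. In that fit 0.123% of all genes were lower and 0.458% higher. With 1 library left out the number lower was 15 without ISP 16, where 5.29% of all genes were lower, 3 without control 38 (0.955%), 5 without ISP 12 (2.86%) and 4 without any of the others (0.786% to 4.24%).

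Grm2, a presynaptic receptor that reduces glutamate release, was at 85.4, 68.6, 79.0 and 93.6 CPM in control and at 90.8, 65.7, 98.7 and 89.8 in Veh. In ISP it was at 62.5, 41.1, 50.3 and 47.9 CPM, below every library of the other groups. The log2 fold change was -0.70 against control (SE 0.131, edgeR adjusted p = 0.0231), the call remained with each library left out, and without ISP 14 and ISP 18 the value was -0.53 (adjusted p = 0.193). Its adjusted p ranged from 6.8e-05 to 0.336 over the alternatives. Grm3, the other group II receptor and one that astrocytes also express, gave -0.21 against control (adjusted p = 0.227). The log2 ratio of Grm3 to Grm2 was 0.03 ± 0.353 in control, -0.33 ± 0.308 in Veh and 0.53 ± 0.203 in ISP. ISP libraries lay between 0.28 and 0.76, above all Veh libraries, while they overlapped with control.

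Grin2c was the member called higher. This NMDA subunit, known from cerebellar granule cells and from astrocytes, was at 55.7, 48.5, 53.9 and 56.8 CPM in control, 66.9, 63.6, 58.9 and 80.5 in Veh and 68.0, 75.9, 69.3 and 65.2 in ISP. All 8 stroke libraries lay above all control libraries. The log2 fold change was 0.37 in ISP (SE 0.085, edgeR adjusted p = 0.0351) and 0.34 in Veh (SE 0.103, adjusted p = 0.141). Without ISP 14 the call in ISP was lost, with a log2 fold change of 0.32 to 0.40 over the single omissions. Without ISP 14 and ISP 18 together Grin2c gave 0.36 (adjusted p = 0.255). Of 15 astrocyte markers, 6 were higher in ISP (2 without these libraries) and 1 in Veh, with medians of 0.23 in each, and the list summed to 5950 to 6386 CPM in control, 6099 to 8015 in Veh and 6720 to 8236 in ISP. The part of astrocyte content in the Grin2c value was not tested.

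The remaining GABA A calls in ISP were spread over subunit classes. Gabrd was at 121, 96.7, 88.8 and 113 CPM in control, 132, 83.7, 122 and 105 in Veh and 78.0, 74.0, 83.8 and 87.9 in ISP, so that all ISP libraries lay below all control libraries. Its log2 fold change against control was -0.38 (SE 0.107, edgeR adjusted p = 0.0652). Gabrg3, a rare gamma subunit, fell from 41.1 ± 5.32 to 31.7 ± 2.97 CPM (adjusted p = 0.0695) and was at 32.8 ± 3.12 in Veh. Gabrb1 fell from 107 ± 5.32 to 86.0 ± 11.04 CPM (adjusted p = 0.0758) and Gabra4, a partner of the delta subunit, from 95.9 ± 5.52 to 79.6 ± 8.44 CPM (adjusted p = 0.098). Grm5 fell from 107 ± 5.84 to 79.6 ± 17.4 CPM (adjusted p = 0.0901). With 1 library left out, the call of Gabrd was lost without control 19, control 38, ISP 12 or ISP 14 (-0.45 to -0.31 over all 8 omissions) and that of Gabrg3 without control 21, control 36, control 38, ISP 14 or ISP 18 (-0.44 to -0.31). Grm5 was called in 2 of the 8 fits (-0.54 to -0.30), and Gabrb1 (-0.37 to -0.24) and Gabra4 (-0.33 to -0.22) in 1 each. Without ISP 14 and ISP 18 together none of these 5 was called, at -0.37 for Gabrd (adjusted p = 0.349), -0.29 for Gabrg3, -0.25 for Gabrb1, -0.22 for Gabra4 and -0.37 for Grm5, and Gria3 gave -0.27 (adjusted p = 0.348).

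**Figure D3:**
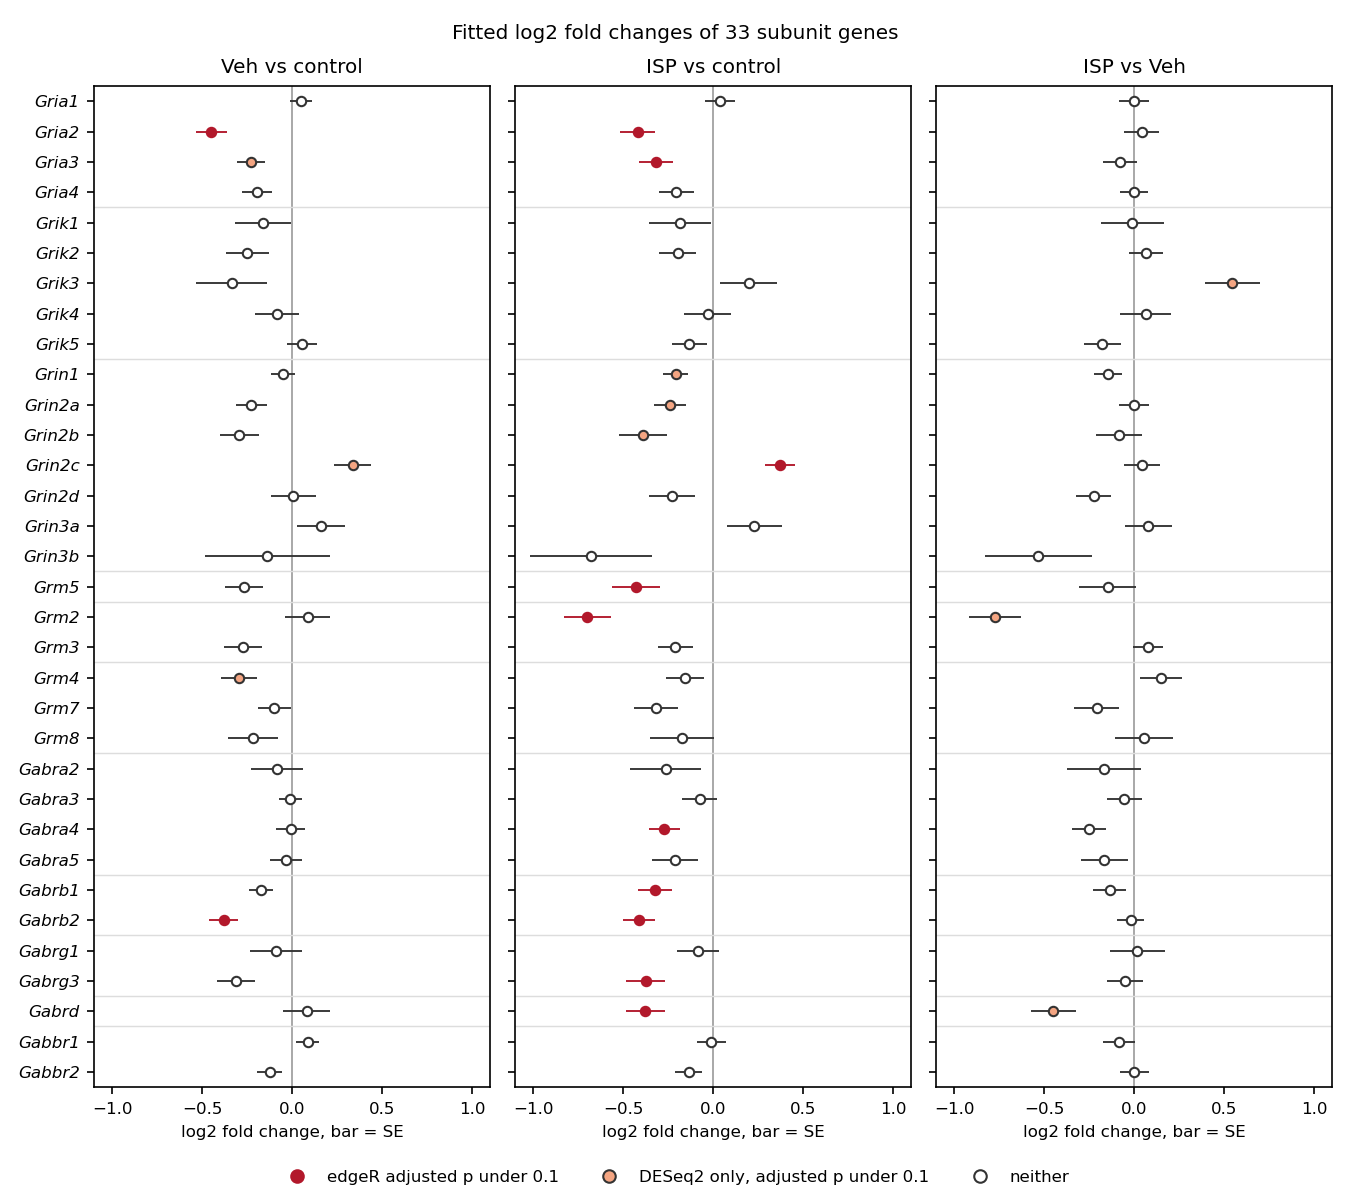
Log2 fold changes of 33 subunit genes with their SE in the 3 comparisons, grouped by family from Gria1 at the top to Gabbr2 at the bottom. Filled red points passed the edgeR threshold, orange points passed with DESeq2 only, and most points of the control comparisons lie left of 0.

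ISP 18 held the lowest value of the 12 libraries in 23 of the 37 tested members, where it did so in 14.8% of 15543 genes. Control 21 held the highest value in 13 of 37 members, against 15.1% of genes. ISP 18 also had the lowest centred log2 mean of pan-neuronal markers, -0.25, and the highest of oligodendrocyte markers, 1.13. Pan-neuronal markers had a median log2 fold change of -0.13 in ISP and -0.03 in Veh against control, with 0 of 15 called in either by edgeR and 1 and 3 lower by DESeq2. With their mean as a covariate, edgeR called 9 members lower in Veh, where 5.05% of all genes were lower, and 0 in ISP, where 0% of all genes were lower and 0.0197% higher. In that fit the 9 members lower in ISP without the covariate had log2 fold changes of -0.55 to -0.20 (adjusted p of 0.336 to 0.63) and Grin2c had 0.40 (adjusted p = 0.318). Against control, 14 of 15 microglia and macrophage markers and 12 of 14 oligodendrocyte markers were higher in ISP, and 5 and 0 without ISP 14 and ISP 18. The part of this glial content in the receptor values was not tested.

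ISP was compared with Veh to describe the peptide treatment after stroke. By edgeR 0 of 37 members were called, as 0% of 15214 genes were, with a smallest adjusted p of 0.261 among members and among all genes. At an unadjusted p under 0.05, 5 of 37 members passed, 1 higher and 4 lower, no larger a share than the 15.3% of all genes. DESeq2 called 3 of 37, against 2.51% of genes, with Grik3 higher and Grm2 and Gabrd lower. In 2 of 37 members, Grm2 and Grin2d, every ISP library lay below every Veh library, against 3.96% of genes. The median log2 fold change of the members was -0.05, against 0.02 over all genes, and 23 of 37 were negative.

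Grm2 in ISP stood at a change of -41.5% from Veh, with a log2 fold change of -0.77 (SE 0.145, edgeR adjusted p = 0.261) and a DESeq2 adjusted p of 0.000558. Over the alternatives the adjusted p ranged up to 0.623. Grik3, a kainate subunit that also sits presynaptically, was at 91.7, 148, 113 and 84.2 CPM in Veh and at 166, 154, 146 and 171 in ISP. Its groups overlapped through Veh 6 at 148 CPM alone, and control libraries ranged from 102 to 183. The log2 fold change was 0.55 (SE 0.152, edgeR adjusted p = 0.261), with a DESeq2 adjusted p of 0.0405. Gabrd stood at a change of -26.7% in the fit, with a log2 fold change of -0.45 (SE 0.126, edgeR adjusted p = 0.261), and Veh 6 was again the Veh library inside the ISP range. Without Veh 6, edgeR called Grm2 and Gabrd lower and Grik3 higher, with log2 fold changes of -0.89, -0.57 and 0.72, in a fit that called 72 of 15367 genes (0.469%). Without ISP 14 and ISP 18 the values of Grm2, Grik3 and Gabrd were -0.61, 0.51 and -0.45, with an adjusted p of 0.623 for each and 0% of all genes called.

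Markers of cortical layers differed between the same libraries. The 13 deep-layer neuron markers had a centred log2 mean of 0.52 in Veh 6, against -0.74 to -0.24 in the other Veh libraries, and of -0.05 to 0.66 in ISP. They summed to 280.3 to 571.6 CPM in Veh and 433.1 to 612 in ISP, with a median log2 fold change of 0.54 and 12 of 13 positive, and none of these markers was at 0. The 12 upper-layer markers were at 666.8 to 1068 CPM in Veh and 618.7 to 799.6 in ISP, with a median of -0.49. Grik3 was highest in control 36 at 183 CPM, where the deep-layer mean was 0.40, and lowest in Veh 10 at 84.2 CPM, where it was -0.74. Grm2 was highest in Veh 8 at 98.7 CPM and lowest in ISP 14 at 41.1 CPM, where the upper-layer means were 0.28 and -0.26. In ISP 16 Grm2 was at 50.3 CPM with an upper-layer mean of 0.09, and in control 36 at 79.0 CPM with a mean of -0.52. The part of layer content in the values of Grik3, Gabrd and Grm2 was not tested.

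Several AMPA subunits were among the members with a log2 fold change between ISP and Veh below its SE. Gria1, Gria2 and Gria4 gave log2 fold changes of -0.0009, 0.041 and 0.0015, with SEs of 0.0821, 0.097 and 0.0774. Grin2a was at 183 ± 15.9 CPM in Veh and 183 ± 15.2 in ISP, and Grin2c at 67.5 ± 9.26 and 69.6 ± 4.52. Grin1 gave -0.14 (SE 0.0786, edgeR adjusted p = 0.394) and Grin2b -0.09 (SE 0.126, adjusted p = 0.774). Gabrb2 and Gabbr2 gave -0.0186 (SE 0.0754) and 0.0013 (SE 0.079). Grin2d stood at a change of -14.5% in ISP, with 23.7, 22.2, 25.6 and 23.9 CPM in Veh and 19.2, 18.9, 21.7 and 21.9 in ISP, at an edgeR adjusted p of 0.309.

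**Figure D4:**
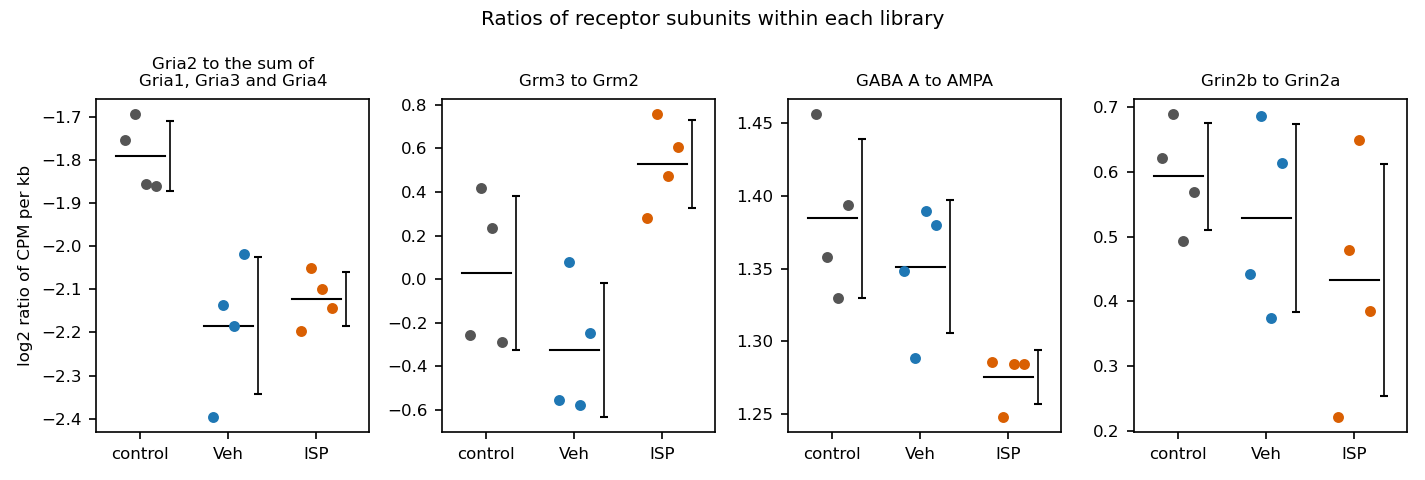
Log2 ratios of CPM per kb within each library, with group means as lines and SDs as bars, on axes that do not start at 0. The ratio of Gria2 to the other AMPA subunits is -1.86 to -1.69 in control and -2.40 to -2.02 in the other libraries, and the ratio of Grm3 to Grm2 is 0.28 to 0.76 in ISP.

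Other ratios are given in the same way. The log2 ratio of summed GABA A to summed AMPA subunits was 1.38 ± 0.0547 in control, 1.35 ± 0.0457 in Veh and 1.28 ± 0.0187 in ISP (SD, n = 4). All ISP values, 1.2475 to 1.2857, lay below those of Veh and control, but the lowest Veh value, 1.2882, was close to the highest of ISP. The mean differences from Veh and control were -0.08 and -0.11, or -0.05 and -0.05 without division by length. Grin2b to Grin2a was at 0.53 ± 0.145 in Veh and 0.43 ± 0.179 in ISP, with overlapping groups.

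The proteins that traffic, anchor and supply these receptors were described from lists of related genes. In Veh, Neto1 and Neto2, the auxiliary subunits of kainate receptors, were lower than control with log2 fold changes of -0.45 (edgeR adjusted p = 0.0856) and -0.36 (adjusted p = 0.098), which made 2 of 6 genes of the list of kainate and GABA B receptor auxiliary proteins. In ISP the 1 called gene of that list was Kctd16, a GABA B auxiliary protein, at -0.62 (adjusted p = 0.0273). Homer1, a scaffold that links Grm5 to the postsynaptic density, was the 1 of 18 excitatory scaffolds called in Veh, at -0.56 (adjusted p = 0.0732). In ISP 4 of the 18 were lower, among them Dlgap2 at -0.53, Shank3 at -0.35 and Dlg4 at -0.31, and Homer1 gave -0.45 with an adjusted p of 0.153. The list medians were -0.13 in Veh and -0.22 in ISP.

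Among 16 AMPA receptor auxiliary proteins, 0 were called in Veh by edgeR and 1 was lower by DESeq2. In ISP Cnih3 (-0.35, edgeR adjusted p = 0.0391) and Frrs1l (-0.37, adjusted p = 0.0897) were lower and Cacng5 was higher (1.30, adjusted p = 0.0383). Of 13 inhibitory scaffolds 0 were called in Veh and 1, Insyn1, was lower in ISP at -0.42 (adjusted p = 0.0783), while gephyrin (Gphn), which clusters GABA A receptors, gave -0.01 in Veh and -0.07 in ISP. Of 13 ionotropic subunits outside the rule 5 were tested and 0 called, and Glrb, the beta subunit of the glycine receptor, gave -0.27 in Veh (adjusted p = 0.116) and -0.22 in ISP (adjusted p = 0.125).

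Glul, the glutamine synthetase of astrocytes, was the 1 of 12 genes of glutamate synthesis, loading and uptake called in Veh, at 0.50 (edgeR adjusted p = 0.0357), and it was at 0.56 in ISP (adjusted p = 0.0162). In ISP, Glud1 and Slc1a3 were also higher and Slc17a6 was among the lower genes, so that 3 of 12 rose and 2 fell. Of 10 genes of GABA synthesis, loading and uptake 0 were called in Veh. In ISP, Abat, which breaks GABA down, was higher at 0.28 (adjusted p = 0.0782), and Slc12a5, the chloride exporter KCC2 that sets the driving force of GABA A receptors, was lower at -0.28 (adjusted p = 0.0559). Between ISP and Veh, edgeR called 0 genes of all 7 lists, and DESeq2 called 1 excitatory scaffold lower and 1 inhibitory scaffold higher. Without ISP 14 and ISP 18, the only call against control over these lists was Glul, higher.

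**Figure D5:**
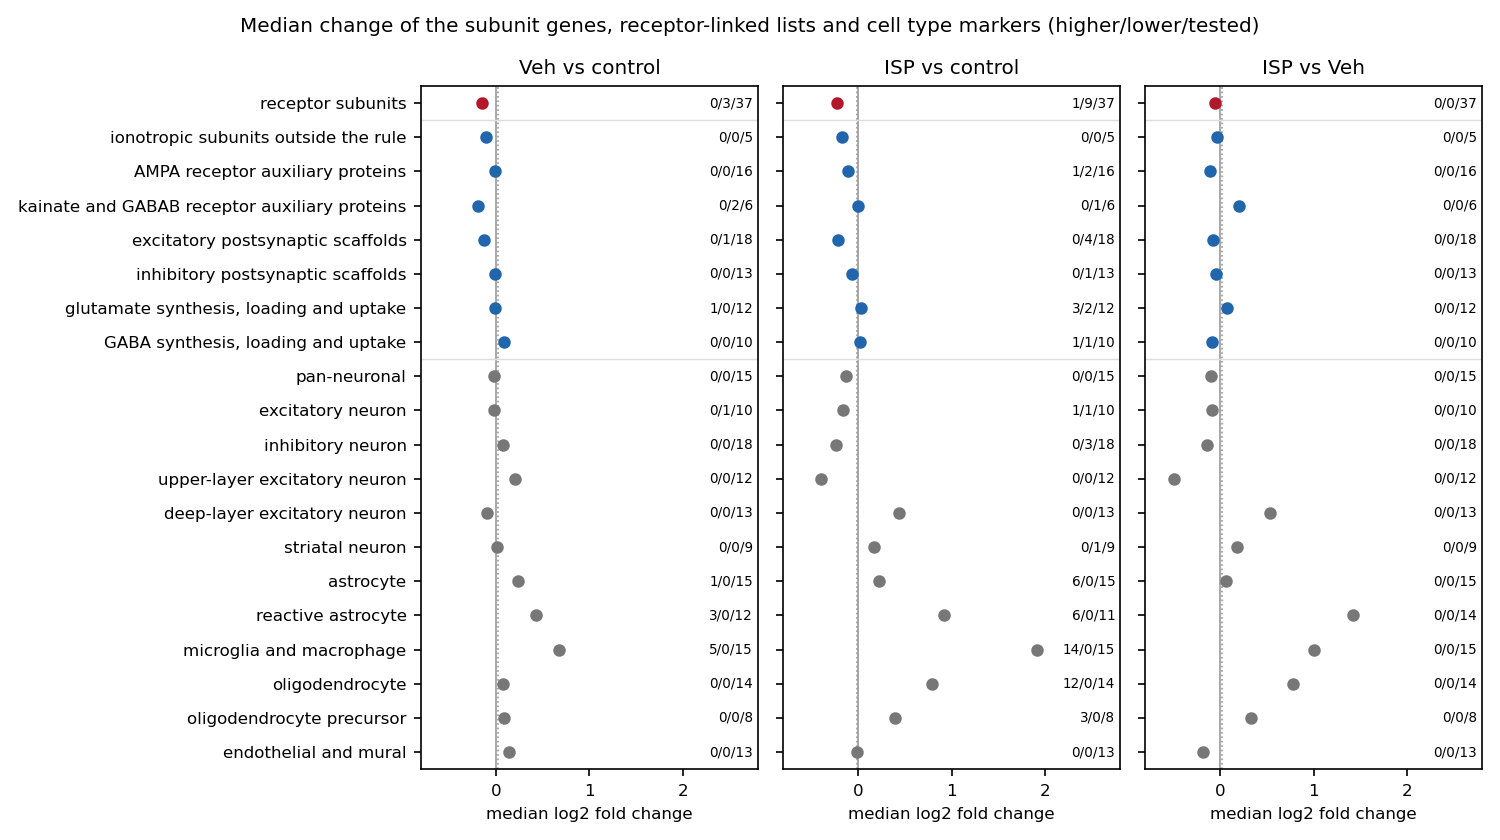
Median log2 fold change of the receptor subunits (red), 7 receptor-linked lists (blue) and 12 cell type marker lists (grey) in the 3 comparisons, with the numbers called higher, called lower and tested by edgeR at the right of each row and the median of all genes as a dotted line. The receptor subunits have medians of -0.15, -0.22 and -0.05, and microglia and macrophage markers reach 1.91 in ISP against control.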

How the data were processed

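Peri-infarct cortex of 12 mice was profiled by RNA-seq, with 4 mice in each of the groups control, Veh and ISP. The authors punched the tissue from frozen brain, enriched mRNA with oligo(dT) beads, used HISAT2 for alignment to mm10 and HTSeq with its default parameters for counting over GENCODE genes. The sources used here give no tool versions. The library protocol names no step that marks strand, and whether the strand setting of the counting fitted the libraries could not be settled from the counts. Reads of overlapping genes on opposite strands may therefore not have been told apart. The deposited values are raw counts for 25238 genes and were used as deposited, with no replicate pooled.

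For each comparison, edgeR 4.0.16 under R 4.3.3 was run on the 8 libraries of its groups (filterByExpr by group, TMM, glmQLFit, glmQLFTest), and Benjamini-Hochberg adjusted p-values under 0.1 over all genes tested were called. The SE of an edgeR log2 fold change is its absolute value divided by the square root of the quasi-likelihood F statistic. The scripts were tested on simulated data. CPM values are TMM-normalized over all 12 libraries, and levels per kb were divided by merged exon length from GENCODE M21, in which 24365 symbols were found, with 335 more matched through RefSeq synonyms. The centred log2 means of marker lists are means of log2(CPM + 1) relative to the mean of the 12 libraries. Promoters are RefSeq entries of build GRCm38.p6, matched by symbol for 26 of 39 members, and the last 30 bases were searched against GENCODE transcripts and lay in a transcript of the gene for 23 of 33.

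Every member is counted in its family and most are named, a few genes not being reported here, with statistics for those called in any comparison and up to 4 per family. From each list, up to 3 genes with the smallest p in Veh against control could be named, and other list genes were named after their values were seen. The members and lists were chosen with earlier results of these data known. Each mouse is 1 replicate. The 18 pairs of libraries within a group differed beyond counting noise, with a chi-square per degree of freedom of 10.68 to 48.41. The sources used here name no batch. The alternatives were DESeq2 1.42.0 and its size factors, limma-voom (limma 3.58.1), other filters and thresholds, all 12 libraries in 1 fit, a GC content and length offset (loess span 0.3), a pan-neuronal covariate, and omission of libraries.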

Additional observations from a re-analysis of the deposited data

Results flagged for a closer look

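In 124 groups of 4 values (members and 4 subunit ratios in each group), the highest or lowest library was checked against the rest with Dixon's gap test, which chance passes in about 1 in 20 groups, and 4 passed. Grm4 was at 44.8 CPM in control 36, above the 39.1 to 39.6 CPM of the other control libraries. Grin3a was at 32.5 CPM in Veh 2 and at 26.2 to 27.1 in the other Veh libraries. Gabrg1 was at 10.8 CPM in ISP 18, below the 12.4 to 12.7 of the other ISP libraries. The log2 ratio of summed GABA A to summed AMPA subunits was 1.25 in ISP 14, against 1.28 to 1.29 in the others.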

How the results depend on the processing

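No paired analysis was possible because the groups share no replicate number. Of the alternatives, DESeq2 size factors, no filter, a filter of 10 counts in every library, limma-voom and the GC content and length offset left the number of members called within 1.5 times of that reported in all 3 comparisons. The members called were not always the same: with the GC content and length offset, Gria2 lost its call in Veh and in ISP. By DESeq2 the members called higher and lower were 1 and 2 for ISP against Veh, 1 and 6 for Veh against control, and 1 and 14 for ISP against control. With all 12 libraries in 1 fit, 0 were lower in Veh than in control, where 0.122% of all genes were lower. The same fit placed 13 lower and 1 higher in ISP than in control, against 4.1% and 7.52% of all genes. With the pan-neuronal mean as a covariate, 9 were lower in Veh, and 0 were lower and 0 higher in ISP than in control. With ISP 14 and ISP 18 left out, 0 were lower and 0 higher in ISP than in control. At an adjusted p under 0.05, 0 members were called in Veh against control. In ISP against control, Grm2, Gabrb2 and Gria2 stayed lower and Grin2c higher at that threshold. With a log2 fold change limit of 0.5, 0 were lower in Veh, 1 was lower in ISP (Grm2) and 0 were higher in ISP. The shares of all genes at these stricter limits are not given here, so the counts have no background beside them. With each library left out in turn, the number called ranged from 0 to 1 higher and 0 to 2 lower for ISP against Veh, from 0 to 4 lower for Veh against control, and from 0 to 1 higher and 3 to 15 lower for ISP against control. Without division by length, the log2 ratio of summed GABA A to summed AMPA subunits differed by -0.0485 between ISP and control, and the other ratios moved by less than the spread between replicates, as all did with each library left out. No named member with a call reversed its direction under any of these alternatives. Counts limit precision most for Grin3b, at 3.65 ± 1.71 CPM in control. Across the 37 members, Spearman's rho of the log2 fold change with GC content and with exon length was 0.485 and -0.424 for Veh against control, 0.261 and -0.09 for ISP against control, and -0.209 and 0.248 for ISP against Veh. Over all genes it was 0.223 and -0.263, -0.041 and -0.019, and -0.244 and 0.214. These are correlations across genes, which share libraries and are not independent replicates. The causes of these differences were not tested.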
